A study of Mus musculus with 20 samples.

Results

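Nuclear genes for mitochondrial proteins were followed in mouse liver: 18 genes whose symbols start with Nduf, Cox and a digit, Atp5, Uqcr, Sdh, Mrpl, Mrps, Timm or Tomm, of 4217 mouse genes with attributed counts. Liver RNA was sequenced from 20 individual mice in 4 groups of 5: mice given anti-CD40 without antibiotics (mice 16 to 20), control mice without antibiotics (mice 6 to 10), mice given anti-CD40 with antibiotics, abbreviated ABX (mice 11 to 15), and control mice with ABX (mice 1 to 5). Anti-CD40 is an antibody against the immune receptor CD40, which B cells, dendritic cells and macrophages carry. Strain, age, sex, the clone, dose and timing of the antibody, what the control mice received and which antibiotics were used are not stated in the labels. The reads had been aligned to the mouse genome (mm10) but counted over human exon coordinates, so a mouse gene was measured only where a counted interval happened to lie over exons of that gene and of no other by at least 50 bases. The rule for a member was 20 or more counts over all libraries, and it used no other value. The annotation held 231 genes with these prefixes, 211 of them protein-coding. Of the 231 genes, 171 lay under no counted interval, 42 lay only under intervals that other genes share or that cover less than 50 bases, and 18 were members. The members of lowest total were Ndufs1 with 32 counts, Cox4i2 with 55 and Mrpl1 with 83, and no gene was attributed with fewer counts than the threshold.

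Mitochondria make most of the ATP of a hepatocyte by passing electrons through complexes I to IV of the inner membrane and using the resulting proton gradient to drive complex V, the ATP synthase. A small part of these complexes is encoded in the mitochondrial DNA and made on mitochondrial ribosomes, while the other subunits, all proteins of those ribosomes and the import channels are encoded in the nucleus. The members held 2 genes of complex I (Ndufs7 and Ndufs1), 1 assembly factor of complex II (Sdhaf2), 1 subunit of complex III (Uqcrfs1), 2 genes of complex IV (Cox10 and Cox4i2), 2 of complex V (Atp5c1 and Atp5s), 6 proteins of the large and 2 of the small mitochondrial ribosomal subunit, and 1 translocase component each of the inner (Timm22) and outer membrane (Tomm70a).

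The results turn on 4 members, and the longest coding stretch under the counted interval of each is shown to make plain which piece of the gene was measured. For Ndufs7 it is chr10:80253660-80253783 on the plus strand, for Uqcrfs1 chr13:30540734-30540965 on the minus strand, for Atp5c1 chr2:10080348-10080403 on the minus strand and for Mrpl21 chr19:3284762-3284817 on the plus strand, all in mm10 and read from GENCODE M21 transcripts. Capitals mark the start codon in Atp5c1 and, in Uqcrfs1, the codons of the 2 short motifs that hold the iron-sulfur cluster of Rieske proteins.
Ndufs7: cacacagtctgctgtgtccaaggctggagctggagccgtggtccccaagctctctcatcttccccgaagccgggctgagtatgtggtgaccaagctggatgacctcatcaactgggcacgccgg
Uqcrfs1: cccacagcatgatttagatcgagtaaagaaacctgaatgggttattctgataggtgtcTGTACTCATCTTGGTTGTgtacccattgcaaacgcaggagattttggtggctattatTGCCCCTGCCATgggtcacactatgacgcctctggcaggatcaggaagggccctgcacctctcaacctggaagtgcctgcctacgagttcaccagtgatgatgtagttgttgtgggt
Atp5c1: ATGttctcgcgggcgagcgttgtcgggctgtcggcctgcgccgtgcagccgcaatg
Mrpl21: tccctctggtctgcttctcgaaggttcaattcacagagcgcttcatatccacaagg
The whole counted length was 905 bases in Ndufs7 (52.7% of its exon length, ending in exon 5 of 9), 658 bases in the last exon of Uqcrfs1 (48.3%), 533 bases in Atp5c1 (27.9%, nearly all at exon 1) and 203 bases at exon 2 of 7 in Mrpl21 (10.1%). Much of the counted length is not coding: 56 of 203 bases are coding in Mrpl21, 208 of 868 in the longer window of Ndufs7, 56 of 506 at exon 1 of Atp5c1 and 232 of 658 in Uqcrfs1. In Mrpl21 and Ndufs7 the windows also overlap retained-intron transcripts, with transcripts for nonsense-mediated decay in Mrpl21 and processed transcripts in Ndufs7, and the counts do not separate these from the coding transcripts. Ndufs1 was measured over 168 bases of a retained-intron transcript and over 0 of its 7 coding transcripts. The windows of Mrpl23 and Mrps9, both called lower with ABX below, overlap retained-intron transcripts as well. In Mrpl23, 79 bases lie over 0 of its 3 coding transcripts.

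Library totals lay between 5053014 and 6211642 counted fragments in the 10 anti-CD40 mice and between 6196703 and 7618736 in the 10 control mice. The 18 members together took 7868 to 13586 counts per library. Of these member counts, Uqcrfs1 held 23.6%, Atp5c1 21.3%, Mrpl15 10.7% and Ndufs7 9.76%. Hepatocyte markers were present in every library: 5 of 10 listed markers had counts (Alb, Apob, Asgr1, Cps1 and Serpina1e), and their summed level was 71800 to 104000 CPM (counts-per-million values, with TMM-scaled library sizes) in anti-CD40 mice and 221000 to 243000 in control mice without ABX, and 106000 to 139000 in anti-CD40 mice and 234000 to 313000 in control mice with ABX. Of these, Apob was called higher and the other 4 lower in both comparisons. Of 8 monocyte and macrophage markers, 3 had counts, with sums of 245 to 971 CPM in anti-CD40 mice and 106 to 240 in control mice without ABX, and of 283 to 891 in anti-CD40 mice and 109 to 158 in control mice with ABX; Lyz2 and Ms4a7 were called higher and Adgre1 lower in both. T and NK cell markers (2 of 8 with counts, Cd8a and Cd8b1) had sums of 2.84 to 6.91 CPM in anti-CD40 mice and 0.419 to 1.19 in control mice without ABX, and of 3.24 to 6.91 in anti-CD40 mice and 0 to 0.802 in control mice with ABX. Cholangiocyte markers (2 of 5) summed to 14.3 to 27.7 CPM in anti-CD40 mice and 4.55 to 7.33 in control mice without ABX, and to 9.37 to 10.2 in anti-CD40 mice and 2.23 to 5.90 in control mice with ABX. Of these 2, Pkhd1 and Sox9, 1 was called higher and 1 lower without ABX, and 1 higher and 0 lower with ABX. Endothelial markers (3 of 6) summed to 25.5 to 102 CPM in anti-CD40 mice and 98.1 to 145 in control mice without ABX, and to 14.5 to 69.8 in anti-CD40 mice and 89.0 to 113 in control mice with ABX. Stellate cell markers (2 of 5) summed to 17.6 to 129 CPM in anti-CD40 mice and 101 to 214 in control mice without ABX, and to 6.79 to 51.3 in anti-CD40 mice and 75.8 to 185 in control mice with ABX, while 0 of 5 neutrophil and 0 of 5 erythroid markers had counts. Of the 3 endothelial markers, 1 was called lower without ABX and 2 with ABX, with 0 higher. Of the 2 stellate cell markers, 0 were called without ABX and 2 were called lower with ABX. Of 5 Kupffer cell markers only Marco had counts, and of 5 B and plasma cell markers only Ighm. Both were called higher with ABX (log2 fold changes 1.72 and 0.71), and neither was called without ABX (1.14 and 0.09). The part of these cell types in the results below was not tested. In whole liver, fewer cells of a type and less RNA per cell cannot be told apart. Transcripts of the mitochondrial chromosome took 24.8% ± 0.795 of counts in anti-CD40 mice and 28.5% ± 3.53 in control mice without ABX (SD, n = 5 each), and 23.3% ± 1.86 in anti-CD40 mice and 32.2% ± 2.16 in control mice with ABX.

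Levels per kilobase of counted length depend on which annotated exons lie under the intervals, because some of that length held few counts: in Tomm70a 1 interval of 907 bases had 42 counts and another of 278 bases had 13497. They are therefore given as a description, with no order read from them. Over all 20 mice, Atp5c1 averaged 687 CPM per kilobase and Uqcrfs1 618, beside Mrpl22 with 219, Mrpl21 with 211, Mrpl23 with 204 and Ndufs7 with 185. Among the others, Atp5s averaged 19.3 CPM per kilobase and Mrps14 9.44, and the 3 members too low to be tested lay between 1.54 for Ndufs1 and 9.17 for Mrpl1. In the relative levels by mouse, the control mice stood above the anti-CD40 mice in Ndufs7, Uqcrfs1 and Atp5c1, while most other rows showed no such step.

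**Figure D1:**
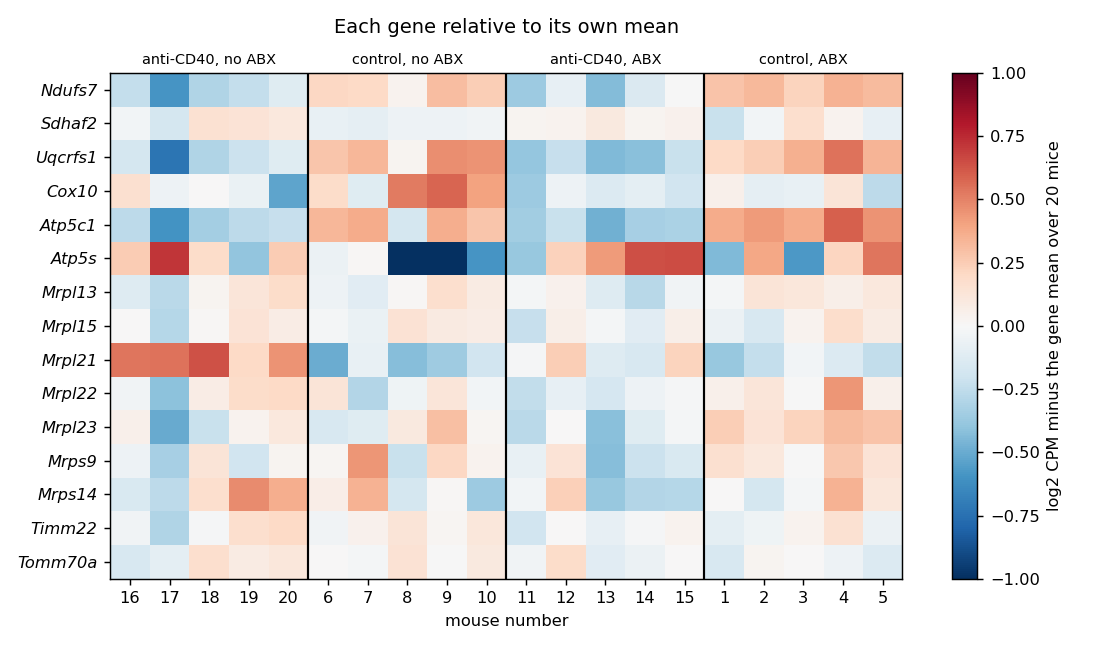
Log2 CPM of each of the 15 tested members (rows) in each mouse (columns, grouped by treatment), minus the mean of that gene over the 20 mice; colours stop at 1 in either direction. Ndufs7, Uqcrfs1 and Atp5c1 are blue in anti-CD40 mice and mostly red in control mice, and Mrpl21 is red in the anti-CD40 mice without ABX.

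Anti-CD40 was first compared with control in the mice that had no ABX. In anti-CD40 livers, 1 tested gene each of complexes I, III, IV and V was lower and another of complex V, Atp5s, was higher: Uqcrfs1 fell by 34.6%, Atp5c1 fell by 33.1%, Ndufs7 fell by 28.9% and Cox10 fell by 24.97%, while Atp5s was 1.64-fold higher. Among mitochondrial ribosomal proteins, Mrpl21 was 1.72-fold higher, while the import genes and the other ribosomal proteins did not pass the test. Of the 15 members tested, 2 were called higher (Mrpl21 and Atp5s), 4 lower (Uqcrfs1, Atp5c1, Ndufs7 and Cox10) and 9 not called. Of all 2200 genes tested, 60.6% were called in this comparison, 31.8% higher and 28.8% lower, so 6 of 15 is no larger a share than among all genes tested. The median log2 fold change of the members was -0.04, beside 0.03 over all genes. Calls are at an adjusted p under 0.05 from edgeR's quasi-likelihood test with Benjamini-Hochberg adjustment over the 2200 genes, and log2 fold changes are given ± SE.

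Ndufs7 encodes an iron-sulfur subunit of complex I that passes electrons on to ubiquinone. Its level was 139.6, 109.5, 134, 139.8 and 151 CPM in anti-CD40 mice without ABX, against 190.0, 189, 169, 204 and 195 CPM in control mice. In TMM-scaled CPM all 5 anti-CD40 mice lay below all 5 control mice, with mouse 17 the lowest. The TMM factor of mouse 17 was 1.32, beside 1.04 to 1.12 in the others of its group. The log2 fold change was -0.49 ± 0.09 (adjusted p = 4.164e-05). Uqcrfs1 encodes the Rieske iron-sulfur protein of complex III, which takes electrons from ubiquinol. It stood at 349, 237, 320.1, 339.7 and 364 CPM in anti-CD40 mice, against 478, 497, 403, 544 and 539.5 CPM in control mice. The groups did not overlap in TMM-scaled CPM, and the log2 fold change was -0.61 ± 0.10 (adjusted p = 1.825e-05). Atp5c1 encodes the gamma subunit, the rotating shaft of the ATP synthase. Its level was 296, 234, 279.7, 296 and 301 CPM in anti-CD40 mice, against 446, 457, 314, 456 and 430.1 CPM in control mice. In TMM-scaled CPM the lowest control, mouse 8, still exceeded the highest anti-CD40 mouse, and the log2 fold change was -0.58 ± 0.09 (adjusted p = 1.124e-05). Over library totals mouse 8 did not, as given further down. All 3 calls were kept in each of 20 fits that left out 1 mouse.

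Mrpl21, a protein of the large mitochondrial ribosomal subunit, went the other way. It stood at 60.5, 60.8, 65.0, 47.9 and 57.0 CPM in anti-CD40 mice without ABX, against 29.6, 39.6, 30.99, 32.7 and 36.6 CPM in control mice. Every anti-CD40 mouse exceeded every control mouse, and the log2 fold change was 0.78 ± 0.10 (adjusted p = 6.795e-07). Groups that did not overlap were seen for 4 of 15 members, 1 higher and 3 lower, beside 42.5% of all genes (21.4% higher and 21.1% lower). The other 4 tested large-subunit proteins and both small-subunit proteins were not called, with log2 fold changes of -0.05 for Mrpl15, -0.03 for Mrpl13, 0.03 for Mrpl22, -0.13 for Mrpl23, -0.19 for Mrps9 and 0.14 for Mrps14.

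The remaining calls of this comparison rested on low counts and on groups that overlapped. Cox10, a farnesyltransferase on the path to the heme A of cytochrome c oxidase, stood at 11.4, 9.86, 10.2, 9.74 and 7.09 CPM in anti-CD40 mice, against 11.6, 9.37, 14.7, 15.3 and 13.5 CPM in control mice. Mouse 7 among the controls lay within the anti-CD40 range, the log2 fold change was -0.41 ± 0.14 (adjusted p = 0.01596), and without mouse 9 it was -0.35 (adjusted p = 0.0533). Atp5s, named as coupling factor B of the ATP synthase, was counted 15 to 39 times per library in anti-CD40 mice and 9 to 21 times in control mice. Its level was 3.63, 4.99, 3.46, 2.32 and 3.62 CPM in anti-CD40 mice, against 2.93, 3.07, 1.5, 1.49 and 2.02 CPM in control mice, with mouse 19 inside the control range. The log2 fold change was 0.71 ± 0.29 (adjusted p = 0.03685), and the call was lost on leaving out any of mice 8, 9, 10, 16, 17, 18 or 20, with values of 0.55 to 0.71 and adjusted p of 0.0523 to 0.131. Both calls were also lost without mice 8 and 17 together, at -0.38 for Cox10 (adjusted p = 0.0526) and 0.44 for Atp5s (adjusted p = 0.249).

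Assembly and import genes did not pass the test without ABX. Sdhaf2, which helps attach the flavin to complex II, ranged from 80.3 to 101 CPM in anti-CD40 mice and from 85.3 to 88.6 CPM in control mice, with a log2 fold change of 0.10 and a 95% interval of -0.05 to 0.25. Timm22, the channel that inserts carrier proteins into the inner membrane, ranged from 40.2 to 56.7 CPM in anti-CD40 mice and from 48.2 to 54.1 CPM in control mice (log2 fold change -0.04, interval -0.22 to 0.14). Tomm70a, an outer membrane receptor for imported carrier proteins, ranged from 121 to 152 CPM in anti-CD40 mice and from 133 to 149 CPM in control mice (log2 fold change -0.02, interval -0.18 to 0.14). The 95% intervals of the 9 members not called lay between -0.43 for Mrps9 and 0.50 for Mrps14. These limits depend on the scaling, as given further down.

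**Figure D2:**
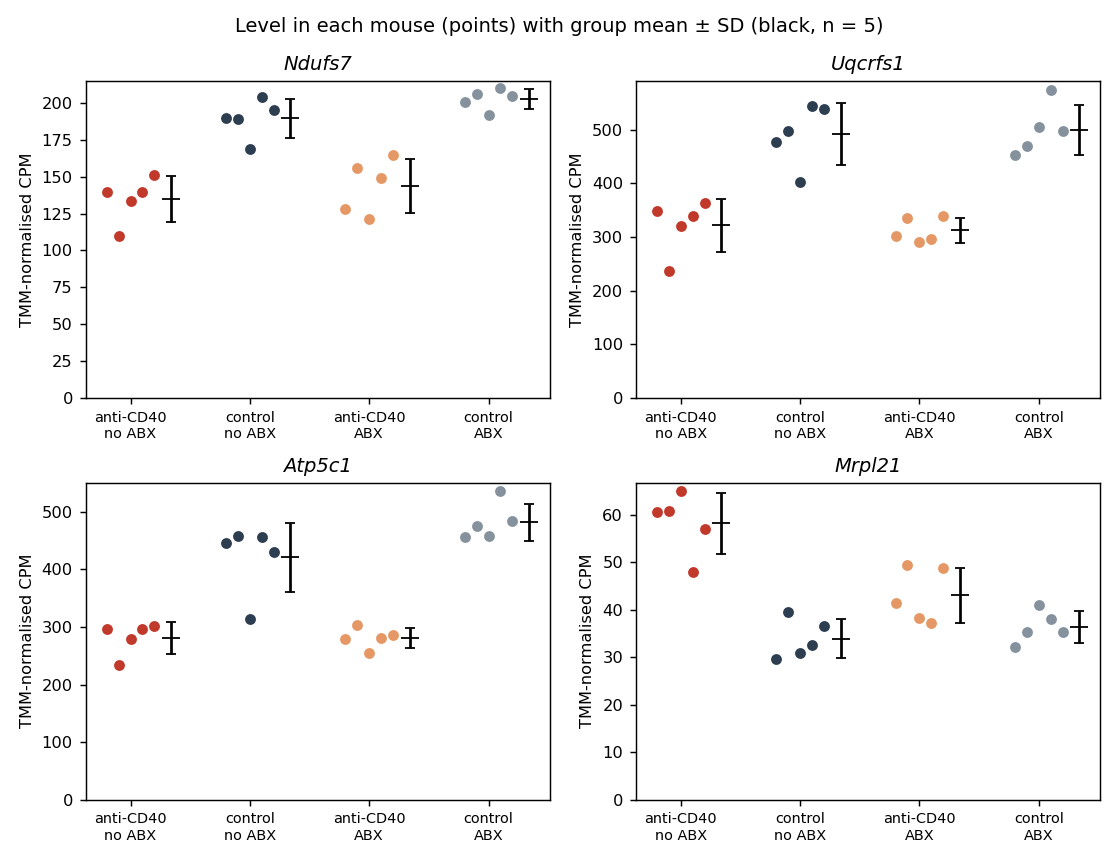
TMM-normalised CPM of Ndufs7, Uqcrfs1, Atp5c1 and Mrpl21 in each mouse (points, in order of mouse number) with the mean ± SD of each group of 5 (black). On this scale every anti-CD40 mouse lies below every control mouse of the same antibiotic status in the first 3 genes. In Mrpl21 every anti-CD40 mouse without ABX lies above the control mice. Over library totals the first 3 genes overlap without ABX, and Ndufs7 overlaps with ABX.

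The second comparison asked the same in mice given ABX, 10 mice that were in neither group of the first. Both comparisons came from 1 fit of all 20 libraries and share its scaling and its estimate of spread. In anti-CD40 livers, 1 gene each of complexes I, III and V was lower: Atp5c1 fell by 41.8%, Uqcrfs1 fell by 37.5% and Ndufs7 fell by 29.1%. Mrpl23 and Mrps9, of the large and small mitochondrial ribosomal subunits, were lower as well. In all, 0 of 15 members were called higher, 5 lower and 10 not, where 51.5% of all genes were called, 26.6% higher and 24.9% lower. At an unadjusted p under 0.05, 1 member was higher (Mrpl21) and 6 lower; DESeq2 also called 5 members, 0 of them higher. The median log2 fold change was -0.16 over the members and 0.02 over all genes. Ndufs7, Uqcrfs1 and Atp5c1 were the 3 members called lower in both comparisons, and 7 members were called in neither.

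Ndufs7 was at 128, 156, 122, 149 and 164 CPM in anti-CD40 mice with ABX, against 200.5, 206, 192, 209.8 and 205 CPM in control mice with ABX. The groups lay apart in TMM-scaled CPM, and the log2 fold change was -0.50 ± 0.09 (adjusted p = 4.633e-05). Uqcrfs1 was at 302, 336, 291, 296 and 339 CPM in anti-CD40 mice, against 454, 469, 505, 574 and 498 CPM in control mice. No anti-CD40 mouse came near the lowest control, and the log2 fold change was -0.68 ± 0.10 (adjusted p = 5.997e-06). Atp5c1 was at 278, 304, 254, 281 and 285 CPM in anti-CD40 mice, against 457, 476, 458, 535 and 483 CPM in control mice. This was the largest fall among the 15 tested members, with a log2 fold change of -0.78 ± 0.09 (adjusted p = 1.725e-07). Each of these 3 calls was kept in all 20 fits that left out 1 mouse.

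Mrpl23 stood at 62.7, 75.5, 56.5, 69.5 and 74.2 CPM in anti-CD40 mice with ABX, against 89.5, 83.1, 88.2, 94.0 and 92.1 CPM in control mice. The groups did not overlap in TMM-scaled CPM, and the log2 fold change was -0.40 ± 0.11 (adjusted p = 0.003217). Mrps9 stood at 45.2, 52.5, 35.5, 41.1 and 43.1 CPM in anti-CD40 mice, against 53.4, 51.5, 47.6, 57.4 and 52.6 CPM in control mice. Mouse 12 lay inside the control range, and the log2 fold change of -0.27 ± 0.11 was at the edge of the threshold (adjusted p = 0.04994). The Mrps9 call was kept without mouse 3, 7, 8, 12, 17 or 18 and lost without any of the other 14 mice, with values of -0.28 to -0.20 and adjusted p of 0.0529 to 0.159. Mrpl22, named after its values were seen, did not overlap between 35.9 to 42.3 CPM in anti-CD40 mice and 42.6 to 58.0 CPM in control mice, yet was not called (log2 fold change -0.25, adjusted p = 0.05818). Non-overlapping groups were found for 5 members, all lower, beside 37.8% of all genes (19.3% higher and 18.5% lower).

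Mrpl21 ranged from 37.3 to 49.5 CPM in anti-CD40 mice with ABX and from 32.1 to 40.9 CPM in control mice with ABX, a log2 fold change of 0.24 ± 0.11 that missed the threshold (adjusted p = 0.05618). The other members not called were Mrpl15 at -0.06, Mrpl13 at -0.16, Mrps14 at -0.20, Cox10 at -0.12, Atp5s at 0.28, Sdhaf2 at 0.07, Timm22 at -0.05 and Tomm70a at 0.06 on the log2 scale. The 95% intervals of the 10 members not called lay between -0.57 for Mrps14 and 0.86 for Atp5s.

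**Figure D3:**
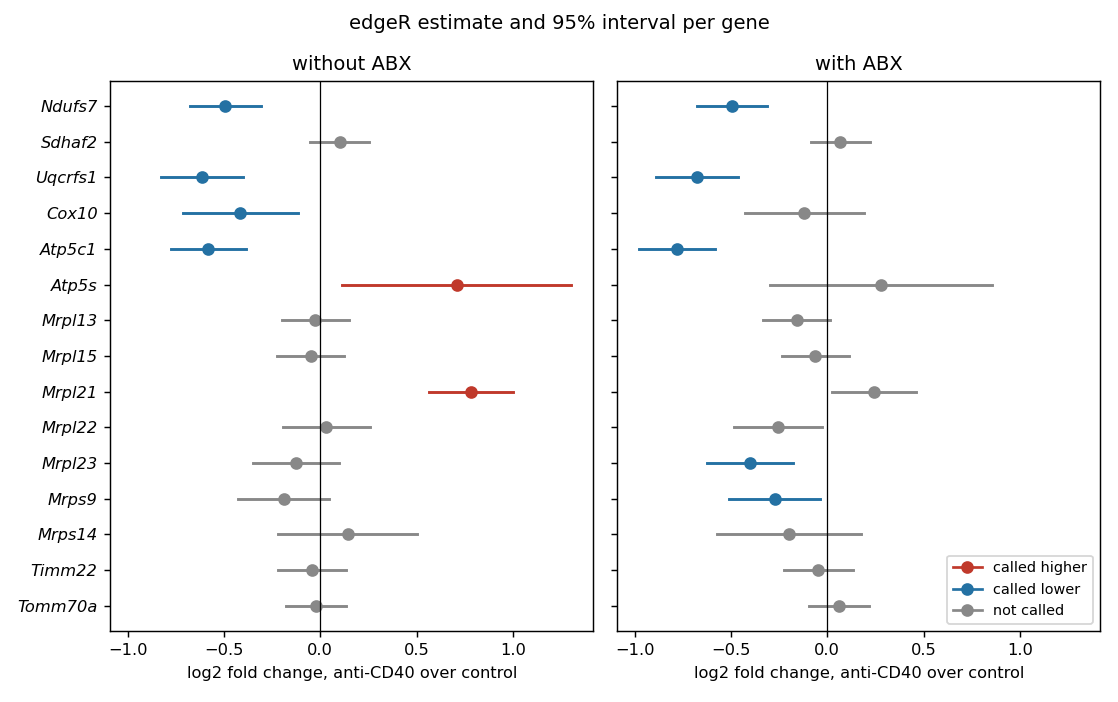
Log2 fold change of anti-CD40 over control (points) with 95% intervals (lines) for the 15 tested members, without ABX (left) and with ABX (right), ordered by role. Ndufs7, Uqcrfs1 and Atp5c1 lie to the left of 0 in both panels, and Mrpl21 lies at 0.78 without ABX and 0.24 with ABX.

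Whether ABX changed the effect of anti-CD40 was tested as the difference of both effects. It was called for 1 of 15 members, Mrpl21, where 7.55% of all genes were called, 4.36% higher and 3.18% lower. The effect on Mrpl21 with ABX minus that without ABX was -0.54 ± 0.15 on the log2 scale (adjusted p = 0.03119). The call was lost without any of mice 3, 4, 6, 9, 11, 13, 14 or 18, with values of -0.52 to -0.48 and adjusted p of 0.0504 to 0.0693. For the members called in both comparisons, the difference was -0.20 for Atp5c1 (interval -0.48 to 0.07), -0.06 for Uqcrfs1 (interval -0.37 to 0.24) and -0.00 for Ndufs7 (interval -0.26 to 0.26). The 14 members not called had intervals between -1.26 for Atp5s and 0.73 for Cox10.

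ABX against no ABX was compared within the anti-CD40 mice and within the control mice. In anti-CD40 mice, 1 of 15 members was called, where 15.9% of all genes were (8.68% higher and 7.23% lower): Mrpl21 averaged 43.0 ± 5.78 CPM with ABX and 58.3 ± 6.42 CPM without (SD, n = 5 each), a log2 fold change of -0.44 ± 0.10 (adjusted p = 0.005295). The groups overlapped, since mouse 19 without ABX had 47.9 CPM and mouse 12 with ABX 49.5 CPM. No member had groups that did not overlap here, which 221 of the 2200 genes had, 5.95% of all genes higher and 4.09% lower. In control mice, 0 of 15 members were called by edgeR and 0 by DESeq2, where 6.68% of all genes were called, 3.45% higher and 3.23% lower. Groups that did not overlap were found for 0 of 15 members in control mice, beside 6.23% of all genes, 3.55% higher and 2.68% lower. At an unadjusted p under 0.05, Atp5c1 was higher (log2 fold change 0.20, 481.8 ± 31.9 CPM with ABX and 420.6 ± 60.6 CPM without) and Cox10 lower (log2 fold change -0.38, 9.89 ± 1.02 CPM with ABX and 12.9 ± 2.41 CPM without). The largest positive value in control mice was Atp5s at 0.55, with an interval of -0.06 to 1.16. The other members in control mice were Mrpl23 at 0.21, Mrpl22 at 0.16, Mrpl21 at 0.10, Ndufs7 at 0.10, Uqcrfs1 at 0.02, Sdhaf2 at 0.04, Mrpl15 at -0.03, Mrpl13 at 0.06, Mrps9 at 0.02, Mrps14 at 0.06, Timm22 at -0.05 and Tomm70a at -0.11. In anti-CD40 mice, Ndufs7 was at 0.09, Uqcrfs1 at -0.04, Sdhaf2 at 0.01, Mrpl15 at -0.04, Mrpl13 at -0.08, Mrpl22 at -0.13, Mrpl23 at -0.07, Mrps9 at -0.06, Mrps14 at -0.28, Timm22 at -0.06, Tomm70a at -0.02, Atp5c1 at -0.00, Atp5s at 0.12 and Cox10 at -0.08. The 95% intervals of these 14 lay between -0.64 and 0.68.

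The remaining members were too low to be tested. Cox4i2, an isoform of a cytochrome c oxidase subunit best known from lung, had 4, 10, 11, 3 and 7 counts in anti-CD40 mice without ABX, against 1, 2, 0, 2 and 2 counts in control mice without ABX. In mice with ABX it had 0, 1, 4, 1 and 0 counts after anti-CD40, against 2, 0, 1, 3 and 1 counts in control mice. The 5 anti-CD40 mice without ABX thus all exceeded their controls, by 1 count at the nearest. With no filter on low counts, edgeR gave Cox4i2 a log2 fold change of 2.17 ± 0.72 for anti-CD40 without ABX (adjusted p = 0.01523) and -2.35 ± 0.74 for ABX in anti-CD40 mice (adjusted p = 0.04118). Mrpl1 had 3 to 8 counts in anti-CD40 mice and 4 to 10 in control mice without ABX, and 0 to 4 in anti-CD40 mice and 2 to 6 in control mice with ABX. With no filter, Mrpl1 was at -0.71 ± 0.54 without ABX (adjusted p = 0.3535) and at -1.38 ± 0.66 with ABX (adjusted p = 0.1165), neither called. Ndufs1, a core subunit of complex I, had 0 to 7 counts per library, all in its retained-intron interval.

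Library scaling decides how many members lie on either side of 0. With library totals in place of TMM, the median of all genes moved to 0.27 without ABX and to 0.37 with ABX, and the split of called members became 8 higher and 3 lower without ABX and 6 higher and 2 lower with ABX. All genes split in a like way, 932 higher and 405 lower of 2200 without ABX and 1035 higher and 312 lower with ABX. Uqcrfs1 was at -0.38 and Atp5c1 at -0.35 without ABX, and at -0.33 and -0.43 with ABX, all still called lower (adjusted p of 1.54e-04, 7.35e-04, 9.33e-04 and 7.36e-05 in that order). Ndufs7 was still called lower without ABX (-0.26, adjusted p = 0.00649), but not with ABX (-0.15, adjusted p = 0.102). Mrpl23 with ABX was at -0.05 and no longer called, nor were Mrps9 with ABX and Cox10 without ABX (-0.16, adjusted p = 0.364). Mrpl21 was called higher in both comparisons, at 1.03 without ABX and 0.59 with ABX, and its difference between them was not called. Sdhaf2, Timm22, Tomm70a, Mrpl13 and Mrpl15, none of them called under TMM, were called higher in both comparisons, between 0.18 for Mrpl15 without ABX and 0.42 for Sdhaf2 with ABX. The summed level of all members was 1525 ± 158 CPM in anti-CD40 mice and 1882 ± 128 CPM in control mice without ABX, and 1484 ± 98.5 CPM in anti-CD40 mice and 1973 ± 116 CPM in control mice with ABX (SD, n = 5 each). As CPM of all counted fragments, without TMM, the same sums were 1696 ± 53.9 in anti-CD40 mice and 1779 ± 122 in control mice without ABX, and 1628 ± 68.8 in anti-CD40 mice and 1700 ± 11.5 in control mice with ABX. The statements on direction above therefore hold relative to the typical gene of each library. TMM factors were 0.777 to 0.974 in control mice and 1.01 to 1.32 in anti-CD40 mice. Some groups apart under TMM overlapped over library totals. Without ABX, mouse 20 stood above control mouse 8 in Ndufs7 (958 of 5997851 counts against 1013 of 6383106). It also did in Uqcrfs1 (2307 against 2420 counts) and Atp5c1 (1912 against 1884 counts). With ABX, mouse 15 stood above control mouse 4 in Ndufs7 (1065 of 5874749 against 1187 of 7282519). Mouse 15 also stood above mouse 4 in Mrpl23 (481 against 532 counts) and Mrpl22 (274 against 328 counts).

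**Figure D4:**
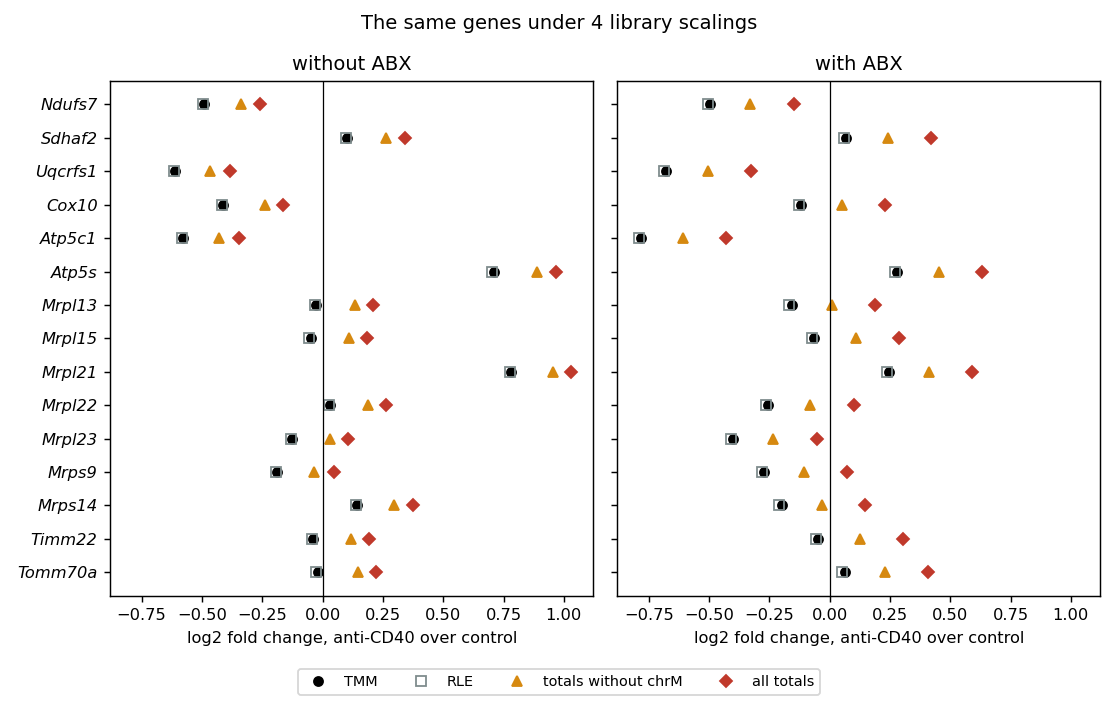
Log2 fold change of anti-CD40 over control for the 15 tested members under 4 library scalings: TMM, RLE, totals without the mitochondrial chromosome, and all totals. All totals shift each member to the right of its TMM value; Uqcrfs1, Atp5c1 and Ndufs7 stay left of 0 in both panels.

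The well given for each library in the labels ran with the groups by plate column: control mice with ABX and control mice 6 to 8 were in column 3, mice 9 and 10, all anti-CD40 mice with ABX and mouse 16 in column 4, and mice 17 to 20 in column 5. Within column 4, mouse 16 differed from control mice 9 and 10 by a log2 ratio of -0.52 in Ndufs7, -0.64 in Uqcrfs1, -0.58 in Atp5c1 and 0.81 in Mrpl21. With column as a term, the fit had as many coefficients as there were combinations of group and column, so its values without ABX rest on mouse 16 against mice 9 and 10, and the lone mouse is assumed to vary like the others. In it, Ndufs7 (-0.52, adjusted p = 0.0301), Uqcrfs1 (-0.64, adjusted p = 0.0175), Atp5c1 (-0.58, adjusted p = 0.022) and Mrpl21 (0.81, adjusted p = 0.00411) were called without ABX, and Cox10 and Atp5s were not. With ABX no column held both groups, so column and anti-CD40 cannot be told apart there except through control mice 6 to 10 without ABX, which stood in both columns. In that fit Ndufs7 was at -0.62, Uqcrfs1 at -0.92, Atp5c1 at -0.91 and Mrpl23 at -0.63, all called, and Mrps9 was not. Neither the Mrpl21 difference (-0.61, adjusted p = 0.25) nor its lower level with ABX in anti-CD40 mice (-0.49, adjusted p = 0.229) was called in it. Of all 2200 genes, that fit called 0 for the difference and 5 for ABX in anti-CD40 mice, beside 166 and 350 without the column term. With so few calls among all genes, the missing calls do not decide whether the Mrpl21 values depend on column. Within column 4, the 5 anti-CD40 mice with ABX averaged 43.0 CPM of Mrpl21 and mouse 16 had 60.5 CPM.

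Other genes of the same pathways were read from lists of the respiratory chain, the citric acid cycle, gene regulation and protein synthesis, all measured in the same partial way. Counts of calls in these lists stand beside 31.8% of all genes called higher and 28.8% lower without ABX, and 26.6% higher and 24.9% lower with ABX. Cyc1, the heme-bearing cytochrome c1 of complex III, averaged 150.2 ± 18.8 CPM in anti-CD40 mice and 346 ± 33.6 CPM in control mice without ABX, and 165 ± 13.5 CPM in anti-CD40 mice and 351 ± 21.8 CPM in control mice with ABX. The log2 fold changes of Cyc1 were -1.20 ± 0.09 (adjusted p = 4.141e-11) and -1.09 ± 0.09 (adjusted p = 3.15e-10), a larger fall than that of any of the 15 tested members in the same comparison. Coq8b, a kinase-like protein of coenzyme Q synthesis, was higher: 90.3 ± 11.8 CPM in anti-CD40 mice and 18.3 ± 2.73 CPM in control mice without ABX, and 36.3 ± 7.53 CPM in anti-CD40 mice and 16.9 ± 2.56 CPM in control mice with ABX. Of 5 tested genes of 51 on the list of other respiratory chain genes, 1 was called higher and 2 lower without ABX, with a median log2 fold change of -0.29, and 1 higher and 1 lower with ABX, with a median of -0.11. Nubpl, a complex I assembly factor, was the second lower call without ABX (-0.53 ± 0.19, adjusted p = 0.01841). It was not called without mouse 17 (-0.41, adjusted p = 0.0632) or mouse 18 (-0.46, adjusted p = 0.0519), nor with library totals, under which the counts were 1 higher and 1 lower without ABX and 2 higher and 1 lower with ABX.

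Of 10 tested genes of 27 of the citric acid cycle and pyruvate entry, 2 were called higher and 6 lower without ABX, and 2 higher and 7 lower with ABX, with median log2 fold changes of -0.67 and -0.52; with library totals 2 were higher in each, and 6 and 4 lower. Among all genes, 28.8% were called lower without ABX and 24.9% with ABX. Idh3b, a subunit of NAD-dependent isocitrate dehydrogenase, averaged 275.5 ± 16.8 CPM in anti-CD40 mice and 496 ± 77.0 CPM in control mice without ABX, and 289.6 ± 22.3 CPM in anti-CD40 mice and 532 ± 25.6 CPM in control mice with ABX. Suclg1 and Suclg2, subunits of succinyl-CoA ligase, had log2 fold changes of -0.97 and -0.90 without ABX and -0.94 and -0.45 with ABX, all called. The 2 higher genes were Pdk3, an inhibitory kinase of pyruvate dehydrogenase, and Pcx. Pcx, pyruvate carboxylase, which feeds the cycle and gluconeogenesis with oxaloacetate, averaged 1607 ± 282 CPM in anti-CD40 mice and 501.6 ± 103 CPM in control mice without ABX, and 1160 ± 116 CPM in anti-CD40 mice and 449 ± 21.2 CPM in control mice with ABX. The log2 fold changes of Pcx were 1.68 ± 0.12 (adjusted p = 2.926e-11) and 1.37 ± 0.12 (adjusted p = 1.207e-09).

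**Figure D5:**
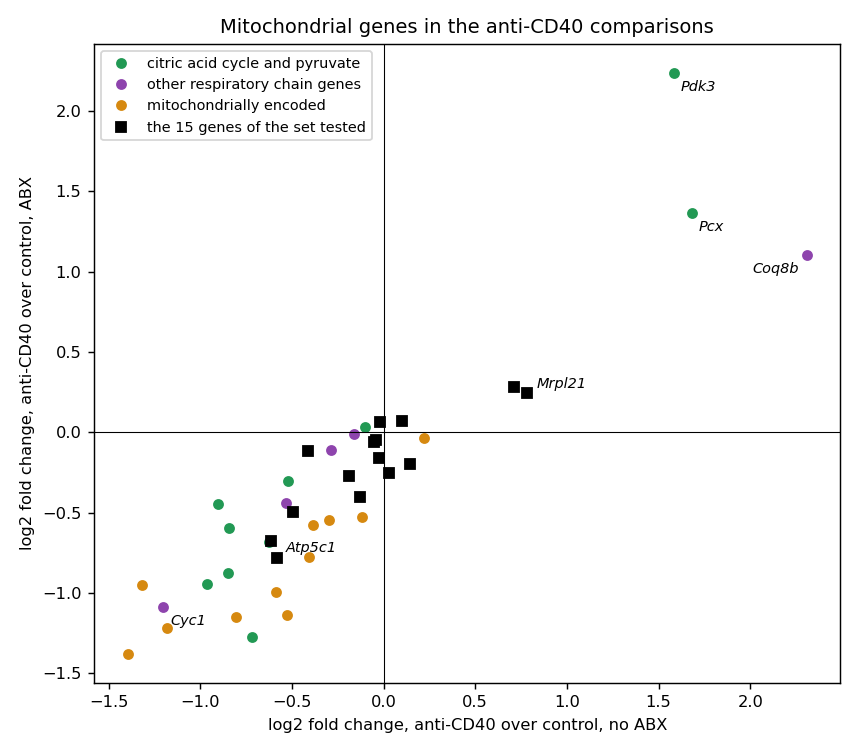
Log2 fold change of anti-CD40 over control without ABX (x axis) and with ABX (y axis) for the 15 tested members (black squares), citric acid cycle and pyruvate genes (green), other respiratory chain genes (purple) and mitochondrially encoded genes (orange). The axes share no libraries; most genes lie below 0 on both, with Pcx, Pdk3 and Coq8b far above 0.

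Transcripts encoded by the mitochondrial chromosome itself were called lower for 7 of 11 tested genes without ABX and for 9 of 11 with ABX, with median log2 fold changes of -0.52 and -0.95 and 0 called higher, where 28.8% and 24.9% of all genes were called lower. With library totals, 6 of 11 were lower and 1 higher in each comparison. The transcription factors that serve nuclear genes of the respiratory chain were split. Nrf1 was higher, at 0.41 ± 0.10 without ABX (adjusted p = 0.001261) and 0.36 ± 0.10 with ABX (adjusted p = 0.005587). The Nrf1 calls were kept in 28 of 29 alternatives in each comparison, with a highest adjusted p of 0.266 without ABX and 0.181 with ABX. Gabpa, a factor of the ETS family, was lower, at -0.49 ± 0.08 without ABX (adjusted p = 8.265e-06) and -0.20 ± 0.08 with ABX (adjusted p = 0.03629), the last not called with library totals (0.15) and lost without any of mice 1, 2, 3, 12 or 13 (-0.20 to -0.14, adjusted p of 0.0508 to 0.113). Of the 5 tested regulators of 18 listed, 1 was called higher and 1 lower without ABX and 2 higher and 1 lower with ABX, the other being the nuclear receptor Ppard (0.996 ± 0.25, adjusted p = 0.001848). With library totals, 2 regulators were higher and 1 lower without ABX, and 3 higher and 0 lower with ABX. Ppargc1a and Tfam were not tested. Tfb2m, which starts transcription of the mitochondrial DNA, was lower at -0.85 ± 0.10 without ABX (adjusted p = 4.729e-08) and -0.82 ± 0.10 with ABX (adjusted p = 1.122e-07).

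Genes that load mitochondrial tRNAs or release and start translation were called lower for 4 of 6 tested of 42 listed without ABX and 3 of 6 with ABX, with 0 called higher and median log2 fold changes of -0.23 and -0.20, where 28.8% and 24.9% of all genes were called lower. Nars2, the asparaginyl-tRNA synthetase, averaged 11.3 ± 2.03 CPM in anti-CD40 mice and 23.5 ± 1.90 CPM in control mice without ABX, and 17.1 ± 1.58 CPM in anti-CD40 mice and 31.8 ± 2.99 CPM in control mice with ABX (log2 fold changes -1.06 and -0.89, adjusted p of 4.303e-08 and 4.678e-07). Lars2, the leucyl-tRNA synthetase, was at -0.97 without ABX (adjusted p = 3.579e-04) and at -0.55 with ABX (adjusted p = 0.03177). The Lars2 call with ABX was lost without any of mice 1, 2, 12, 13 or 14 (-0.54 to -0.39, adjusted p of 0.054 to 0.104), with library totals (-0.20, adjusted p = 0.449) and with column as a term. With library totals, 2 genes of this list were higher and 2 lower without ABX, and 2 higher and 1 lower with ABX. Among 4 tested genes of 42 for other import, chaperones and proteases, 2 were higher and 1 lower in each comparison, and 3 higher and 1 lower in each with library totals. Chchd3, which shapes the cristae, was lower at -0.62 ± 0.09 without ABX (adjusted p = 1.465e-06) and -0.55 ± 0.09 with ABX (adjusted p = 1.077e-05), while the matrix co-chaperone Dnaja3 was higher at 0.29 ± 0.08 (adjusted p = 0.003747) and 0.45 ± 0.08 (adjusted p = 4.982e-05). The Dnaja3 calls were kept in 28 of 29 alternatives in each comparison, with a highest adjusted p of 0.246 without ABX and 0.133 with ABX.

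Promoters were searched because the motifs of Nrf1 and of the ETS family are known from respiratory chain genes, and both Nrf1 and Gabpa were called. RefSeq promoters (250 bases before to 50 after the start, GRCm38.p6) were matched for 13 of 18 members, 15 promoters in all. The ETS motif CCGGAAGT, on either strand, was found in Cox10 and Tomm70a and in 3.89% of 32851 promoters. The motif is shown in capitals within 28 bases, for Cox10 at chr11:64079482-64079509 on the minus strand and for Tomm70a at chr16:57121624-57121651 on the plus strand.
Cox10: gcgctgggagCCGGAAGTgacaagagga
Tomm70a: ccttctgaccCCGGAAGTggttctcccc
Its letters were not in the windows of Ndufs7, Uqcrfs1 or Atp5c1. The palindromic NRF1 motif was found in 0 of the 15 member promoters and in 0.971% of all promoters.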

How the data were processed

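Whole-liver RNA from 20 mice was sequenced, and the deposited values are raw counts of fragments, whole numbers for each annotated human gene. The submitters' processing notes name Trimmomatic 0.38, HISAT2 2.1.0 and the build mm10. Counting used featureCounts 1.5.0-p2 on read pairs over exons, without strand and with a human GRCh38 annotation, per the file headers. Coordinates were therefore read as mm10 and intersected with GENCODE M21 exons (bedtools 2.31.1), and features over exons of exactly 1 mouse gene by 50 bases or more were summed. Of all counts, 52.34% fell on features that overlap more than 1 gene, which were not used.

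Library sizes were totals over all features. Genes were filtered with filterByExpr (2200 kept, 15 of 18 members), scaled with TMM and tested with edgeR 4.0.16 in R 4.3.3, with 1 robust quasi-likelihood fit of 20 libraries, two-sided, and Benjamini-Hochberg adjustment over all 2200 genes. The biological coefficient of variation was 16.7%. Intervals of 95% use the SE and the t distribution of the fit. The precision of a value follows its counts, from 32 in all for Ndufs1 to 49901 for Uqcrfs1. Alternatives were other scalings, DESeq2 1.42.0, no filter, plate column as a term, other attributions and leaving out mice. The script was tested on simulated data. Members named were the called members with the largest change, the 2 most counted per prefix and those nearest the count threshold, with Pcx, and in each other list up to 3 called genes of smallest p. The members and lists were chosen with earlier results of these data known.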

Additional observations from a re-analysis of the deposited data

Results flagged for a closer look

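In 3 of 60 member and group combinations examined, 1 mouse stood apart from the other 4 by more than Dixon's 95% limit, where chance flags about 1 in 20 groups. Atp5c1 was lowest in control mouse 8 without ABX, at 314 CPM beside 430 to 457 in the other mice of that group. Mrpl22 was highest in control mouse 4 with ABX, at 58.0 CPM beside 42.6 to 46.4. Sdhaf2 was highest in anti-CD40 mouse 13 with ABX, at 97.4 CPM beside 92.7 to 93.7. Mouse 8 also had the lowest share of mitochondrial-chromosome counts of the control mice, 22.4%, and its part in the Atp5c1 value was not tested.

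The anti-CD40 effect on Mrpl21 differed with antibiotic status by -0.54 on the log2 scale (with ABX minus without), by the interaction term of the fit. Its call was kept in 17 of 29 alternatives, and in 12 of the 20 that left out 1 mouse. Of all genes, 7.55% were called for this difference.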

How the results depend on the processing

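Uqcrfs1 and Atp5c1 were called lower in both anti-CD40 comparisons, and Mrpl21 higher without ABX, under all 29 alternatives. Members called without ABX were 6, against 11 with library totals; with ABX they were 5, against 8 with library totals. The difference of effects had 1 called member, against 0 with library totals, with plate column as a term, without mice 8 and 17 and with totals free of the mitochondrial chromosome, the last 2 chosen after seeing the data. ABX in control mice had 0 called members, against 1 with library totals (Cox10, -0.51, adjusted p = 0.0441); ABX in anti-CD40 mice had 1, against 2 with no filter and 0 with plate column. Leaving out each mouse in turn gave 4 to 6, 4 to 7, 0 to 1, 0 to 0 and 1 to 1 called members in that order. Of all 2200 genes, the plate column fit called 0 for the difference of effects and 5 for ABX in anti-CD40 mice. Library totals called 1337 of 2200 genes without ABX, 1347 with ABX, 137 for the difference and 174 for ABX in control mice. The difference was called for 217 of 2212 genes without mice 8 and 17. With no filter, 291 of 4217 genes were called for ABX in anti-CD40 mice. With library totals the direction turned, for values called in either fit, without ABX for Timm22 (0.19), Mrpl13 (0.21), Tomm70a (0.22) and Mrpl15 (0.18), and with ABX for Timm22 (0.31), Mrpl13 (0.19), Mrpl15 (0.29), Mrps9 (0.071), Gabpa (0.15) and Iars2 (0.16). Among members called in neither fit it also turned for Mrpl23 (0.10) and Mrps9 (0.05) without ABX and for Cox10 (0.23), Mrps14 (0.15) and Mrpl22 (0.10) with ABX; the cause was not tested. Ndufs7 with ABX was not called with library totals, at -0.15. Of all alternative values of members, 47 lost the call, 18 gained one, and 144 changed sign, 8 of them with a call in either fit and 136 with none. Depth limits Atp5s, Cox4i2, Mrpl1 and Ndufs1 most. No paired analysis was possible because the mouse numbers are not shared between groups.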

Other observations

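Attribution to protein-coding genes alone, which ignores overlapping genes of other types, added 2 mitochondrial ribosomal proteins. Mrps27, of the small subunit, averaged 27.9 ± 4.35 CPM in anti-CD40 mice and 39.3 ± 5.06 CPM in control mice without ABX, and 25.9 ± 2.25 CPM in anti-CD40 mice and 39.3 ± 6.43 CPM in control mice with ABX (SD, n = 5 each). Its log2 fold changes of -0.49 ± 0.12 (adjusted p = 0.001511) and -0.60 ± 0.12 (adjusted p = 2.859e-04) were both called by edgeR. Mrpl48 was not called, at -0.08 without ABX and -0.30 with ABX.

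Genes of mitochondrial dynamics had 5 tested of 21 listed, with 1 called higher and 3 lower without ABX and 0 higher and 2 lower with ABX (1 and 0 of them lower with library totals). Mfn1, which fuses outer membranes, was at -0.53 ± 0.10 without ABX (adjusted p = 4.199e-05) and was not called with ABX. Pink1, a kinase that marks damaged mitochondria, was at -0.36 without ABX (adjusted p = 0.005828) and -0.42 with ABX (adjusted p = 0.001948), not called with library totals. Psat1, an enzyme of serine synthesis, was the only 1 of 16 listed mitochondrial stress genes with counts, so the list as a whole was not measured. Psat1 averaged 25.6 ± 6.09 CPM in anti-CD40 mice and 4.65 ± 1.72 CPM in control mice without ABX, and 22.4 ± 3.46 CPM in anti-CD40 mice and 4.37 ± 1.06 CPM in control mice with ABX.

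Features of 1 gene counted apart did not always carry the same change. In Mrps9 the interval at exon 1 had log2 ratios of anti-CD40 over control of -0.42 without ABX and -0.47 with ABX, and that at exon 10 had -0.06 and -0.17.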
